A study of Homo sapiens with 12 samples.

Results

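LIN28A, LIN28B, L1TD1, ZFP42 and DPPA4 are 5 genes best known from pluripotent stem cells, and their levels were followed through a set of neural and neural crest cultures made from human embryonic stem cells. They were taken by name, as the probes whose annotated gene is one of these 5 (LIN28A under its older symbol LIN28 too). Each gene had 1 probe, so the set is 5 of the 20046 genes with a probe on the array and 5 of the 11280 genes tested. All 5 probes passed the filter on low signal, which asked for a detection p under 0.01 on at least 3 of 12 arrays. ZFP42 was detected on 7 arrays and the other 4 genes on all 12.

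RNA from 12 cultures was read on Illumina HT-12 bead arrays, in 4 groups of 3 that the labels call biological replicates. All groups were derived from the human embryonic stem cell line H9, so they share 1 genome and 1 line. LSB was unsorted neuroepithelial culture at day 11 of differentiation. The sox10-NC cells, also of day 11, were induced with Wnt from H9 carrying a sox10::GFP reporter and sorted for GFP. NPC-NC cells were induced without feeders and sorted at day 18 for the surface markers HNK1 and p75. MS5-NC cells were induced on MS5, a mouse bone marrow stromal line used as a feeder layer, and sorted for the same markers at day 35. Day, induction, sorting and reporter differ together between the groups, and their parts cannot be told apart. No undifferentiated H9 sample was analysed here.

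LIN28A and its paralog LIN28B are RNA-binding proteins that block the maturation of let-7 microRNAs. They bind let-7 precursors through a cold-shock domain and a pair of zinc knuckles. For LIN28A, the terminal uridylyltransferases TUT4 and TUT7 then tag the precursor for decay by DIS3L2. Let-7 in turn represses both LIN28 genes, which gives a switch between the stem cell state and differentiation. L1TD1 is an RNA-binding protein derived from a LINE-1 retrotransposon that associates with LIN28A in human embryonic stem cells. ZFP42, also called REX1, is a zinc finger factor related to YY1 and a long-used marker of undifferentiated cells. DPPA4 is a nuclear protein that works with DPPA2 at developmental promoters.

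The mature let-7 sequences are shown because they define what LIN28 holds back, with the seed (bases 2 to 8) in capitals. They were taken from RefSeq (GRCh38.p14).
hsa-let-7a-5p: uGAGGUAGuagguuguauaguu
hsa-let-7b-5p: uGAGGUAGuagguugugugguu
hsa-let-7c-5p: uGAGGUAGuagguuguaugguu
hsa-let-7d-5p: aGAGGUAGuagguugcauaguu
hsa-let-7e-5p: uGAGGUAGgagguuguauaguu
hsa-let-7f-5p: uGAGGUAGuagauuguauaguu
hsa-let-7g-5p: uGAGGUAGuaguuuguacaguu
hsa-let-7i-5p: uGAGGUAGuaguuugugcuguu
hsa-miR-98-5p: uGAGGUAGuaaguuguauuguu
All 9 of 9 carried the same seed, GAGGUAG, and they form 1 seed family. The differences between them lie outside the seed.

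In the let-7 precursor, the zinc knuckles of LIN28 are known to bind a GGAG motif in the terminal loop region. That motif was present after the 5p arm in 9 of 12 let-7 and miR-98 hairpins of the RefSeq table and absent there in MIR98, MIRLET7A3 and MIRLET7B. A hairpin with the motif (MIRLET7G, chr3:52268278-52268361, minus strand, motif in capitals) and a hairpin without it (MIRLET7A3, chr22:46112749-46112822, plus strand) show the contrast.
MIRLET7G: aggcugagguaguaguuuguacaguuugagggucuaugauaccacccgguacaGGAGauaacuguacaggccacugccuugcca
MIRLET7A3: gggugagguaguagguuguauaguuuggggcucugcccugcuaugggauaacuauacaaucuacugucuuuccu
The array cannot follow the mature microRNAs. It has 10 probes for let-7 precursors, of which 0 passed the filter, with 4 detections over all arrays and at most 2 arrays for any probe. The 6 probes for the miR-302 family, microRNAs of pluripotent cells, were detected on 0 arrays. These probes were looked up after the annotation had been seen.

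The promoters of 4 of the 5 genes, all but LIN28A, were in the RefSeq promoter table (GRCh38.p14), as windows from 250 bases before to 50 bases after the gene start. Shown here are L1TD1 and ZFP42, which both fell in the HNK1 and p75 sorted groups, and DPPA4, which did not. LIN28B, which was lower in MS5-NC than in LSB, was searched too but is not shown. With LIN28A missing, no link between motifs and levels was tested. Capitals mark matches to the SOX element (CTTTGTT or CATTGTT, both strands). The other motifs searched, left in lower case, were the POU octamer (ATGCAAAT), the E-box (CACGTG), the TATA box (TATAAA) and the CCAAT box (CCAAT), each on both strands.
L1TD1 promoter, chr1:62194599-62194898, plus strand: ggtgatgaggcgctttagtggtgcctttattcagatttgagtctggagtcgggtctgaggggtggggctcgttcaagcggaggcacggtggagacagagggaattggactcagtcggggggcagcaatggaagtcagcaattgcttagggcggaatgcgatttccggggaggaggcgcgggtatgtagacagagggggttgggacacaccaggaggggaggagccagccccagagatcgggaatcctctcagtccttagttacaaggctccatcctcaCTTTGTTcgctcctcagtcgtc
ZFP42 promoter, chr4:187995521-187995820, plus strand: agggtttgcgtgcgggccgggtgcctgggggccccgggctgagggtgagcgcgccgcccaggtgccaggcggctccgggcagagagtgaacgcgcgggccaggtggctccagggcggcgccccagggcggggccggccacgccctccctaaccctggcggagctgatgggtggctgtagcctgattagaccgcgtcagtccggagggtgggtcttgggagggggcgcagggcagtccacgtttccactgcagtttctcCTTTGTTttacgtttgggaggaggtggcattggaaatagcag
DPPA4 promoter, chr3:109337497-109337796, minus strand: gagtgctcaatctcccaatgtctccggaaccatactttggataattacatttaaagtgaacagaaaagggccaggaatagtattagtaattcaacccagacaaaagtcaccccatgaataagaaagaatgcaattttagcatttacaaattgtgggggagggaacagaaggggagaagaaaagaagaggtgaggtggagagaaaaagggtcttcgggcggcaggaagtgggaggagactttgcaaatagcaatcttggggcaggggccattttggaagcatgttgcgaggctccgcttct
The SOX element CTTTGTT lay 29 bases into the L1TD1 gene and 9 bases into ZFP42, counted from the annotated start. No match lay in the DPPA4 window or in either of the 2 LIN28B windows, and 8.22% of 35116 promoter windows hold one. A CCAAT box lay in the windows of L1TD1, ZFP42 and DPPA4 and in 1 of the 2 of LIN28B, against 34.6% of all windows. The same LIN28B window (chr6:104956857-104957156) had an E-box 47 bases before the start, a motif found in 7.26% of windows. None of the windows of these genes held the POU octamer, found in 1.77%, or the TATA box, found in 11.5%. CpG dinucleotides numbered 24 in ZFP42, 14 in L1TD1, 5 in DPPA4 and 37 and 8 in the 2 LIN28B windows, beside a median of 14 over all windows. A match is a string of letters in the window and says nothing of binding.

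Across the 12 arrays, 30.9% to 36.1% of 47322 probes were detected, probes had median signals of 93.4 to 114 intensity units, and a probe's signal came from a median of 18 to 22 beads. Levels below are normalised log2 intensities, and differences are log2 differences with the SE of 1 limma model over all 12 arrays, 3 per group. A gene is called when its adjusted p (Benjamini-Hochberg over 11280 genes) is under 0.05, the difference is at least 2-fold and it was detected on at least 2 of the 3 arrays of the higher group. Levels of different genes come from different probes and are not compared. With 3 arrays a group, the precision of these values is limited by that number.

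The groups were checked against their markers. SOX10, the defining transcription factor of the neural crest, had a signal of 1326 to 1625 intensity units on the sox10-NC arrays and was detected on 0 arrays of the other 3 groups. NGFR, which encodes p75, was detected on 3 arrays of sox10-NC, 2 of NPC-NC, 1 of LSB and 0 of MS5-NC, although NPC-NC and MS5-NC were sorted for this protein. Of 11 tested neural crest markers, 9 were higher in sox10-NC than in LSB. The reporter sort itself selects for SOX10. SOX10, FOXD3 and TFAP2B passed the filter through the sox10-NC arrays alone, and PAX3 through these and 1 MS5-NC array. These genes could therefore be called higher in no other group. SOX9 alone of the list was called higher in NPC-NC and in MS5-NC than in LSB. B3GAT1, an enzyme that makes the HNK1 epitope, went the other way: its mean level was 7.40 in NPC-NC, 7.20 in MS5-NC, 6.71 in LSB and 4.76 in sox10-NC, where this probe was detected on 0 arrays. It was called lower in sox10-NC than in each other group, while NPC-NC and MS5-NC were not called against LSB. These calls rest on 1 of the 3 probes of B3GAT1. Another was detected on 10 of the 12 arrays, so also in sox10-NC. Of 10 tested neuron markers, 9 were higher in NPC-NC and in MS5-NC than in LSB. In sox10-NC 5 of the 10 were higher and 2 (MAP2 and STMN4) lower. Of all tested genes, 10.2% were called higher than in LSB in NPC-NC, 13% in MS5-NC and 9.77% in sox10-NC, where 8.64% were lower. POU5F1 (OCT4) and NANOG, core factors of pluripotency, were detected on 0 of 12 arrays by either of their 2 probes each. SOX2, which pluripotent cells share with neural progenitors, was detected on all 12. The 5 genes are therefore called pluripotency-associated here.

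LIN28A was high at day 11 and low in both HNK1 and p75 sorted groups. Its signal was 4827, 5592 and 6047 intensity units on the LSB arrays and 2634, 2504 and 3076 on the sox10-NC arrays. It was 456, 283 and 296 in NPC-NC and 746, 143 and 129 in MS5-NC. After normalisation these became log2 levels of 12.02, 11.94 and 11.88 in LSB, 11.68, 11.41 and 11.60 in sox10-NC, 8.56, 7.71 and 7.73 in NPC-NC, and 9.46, 6.26 and 5.91 in MS5-NC. Both day 11 groups lay above every array of the later groups, and the MS5-NC arrays spread more widely than those of any other group. The means were 11.95 ± 0.07 in LSB, 11.56 ± 0.14 in sox10-NC, 8.00 ± 0.48 in NPC-NC and 7.21 ± 1.96 in MS5-NC (SD, n = 3 each).

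Against LSB, LIN28A was 15.4-fold lower in NPC-NC (-3.95 ± 0.58, limma adjusted p = 7.99e-05) and 26.6-fold lower in MS5-NC (-4.74 ± 0.58, limma adjusted p = 7.58e-06). In sox10-NC all 3 arrays lay below the 3 LSB arrays, but by an amount that did not pass the test (-0.38, 95% interval -1.60 to 0.84, limma adjusted p = 0.655). LIN28A was also lower than in sox10-NC by 11.8-fold in NPC-NC (limma adjusted p = 0.000167) and by 20.4-fold in MS5-NC (limma adjusted p = 1.54e-05, -4.35 on the log2 scale). The size in MS5-NC rested on single arrays: against LSB it was -5.89 without MS5-NC replicate 1 and -4.10 without replicate 3, and against sox10-NC -5.51 and -3.72. Without background correction these differences were -3.96 and -3.58. NPC-NC and MS5-NC overlapped, and their difference was not called (0.79, 95% interval -0.43 to 2.01, limma adjusted p = 0.696). In order of mean level LSB came first, then sox10-NC, NPC-NC and MS5-NC, and of the neighbours in that order only sox10-NC and NPC-NC differed by the test. In bulk RNA, fewer cells with a transcript and less transcript per cell cannot be told apart.

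**Figure D1:**
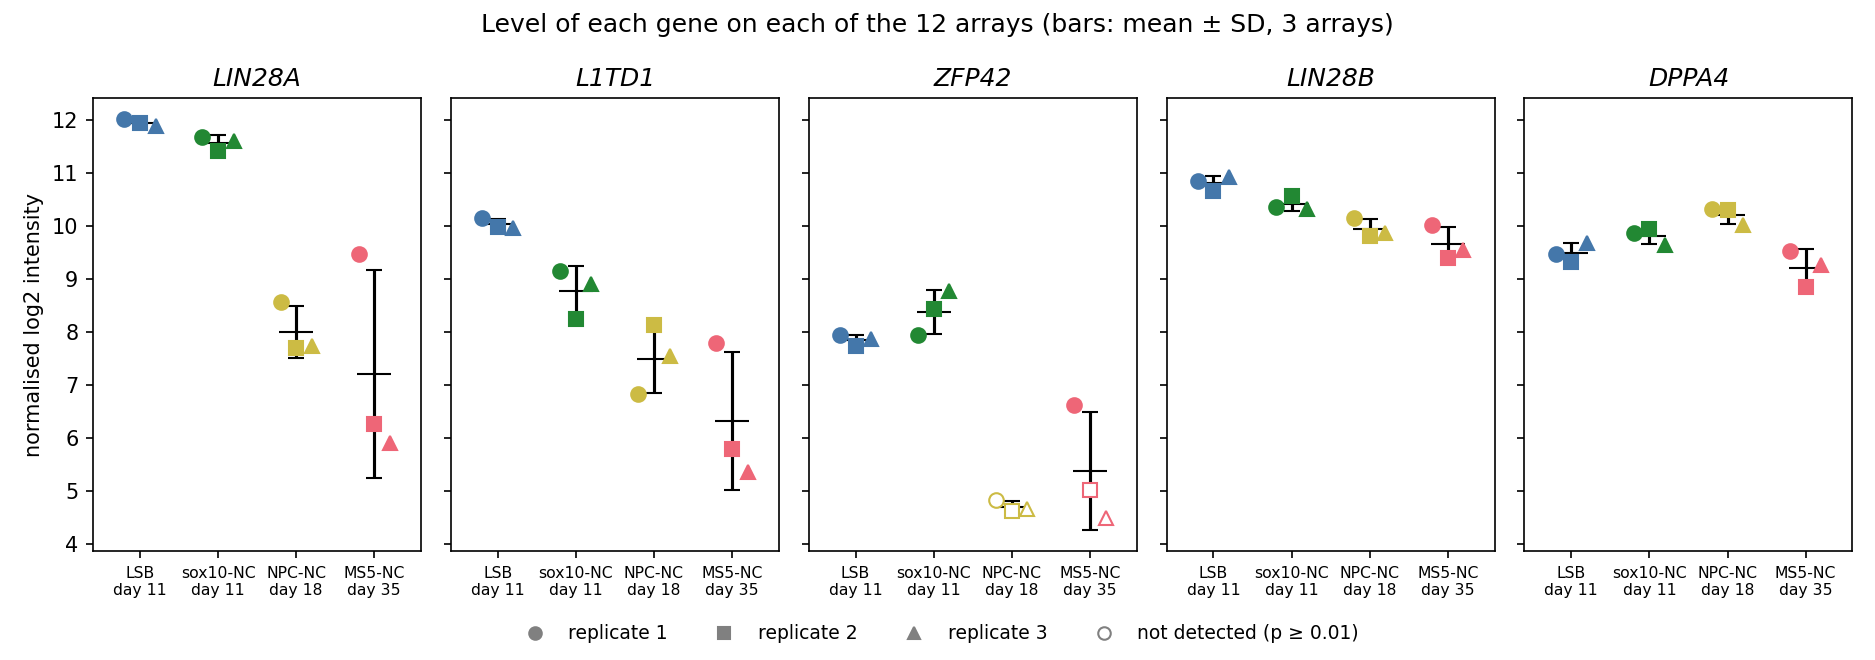
Normalised log2 intensity (vertical axis) of each gene on each of the 12 arrays, by group and day, with the group mean and SD as bars and open symbols where the detection p was 0.01 or more. LIN28A, L1TD1 and ZFP42 sit lowest in NPC-NC and MS5-NC, replicate 1 of MS5-NC lies above replicates 2 and 3 in all 5 panels, and LIN28B and DPPA4 span a narrow range.

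LIN28B, the paralog of LIN28A, was detected on all 12 arrays and moved much less. Its log2 level was 10.86, 10.65 and 10.92 in LSB, 10.36, 10.56 and 10.32 in sox10-NC, 10.16, 9.81 and 9.87 in NPC-NC, and 10.02, 9.40 and 9.55 in MS5-NC. The LSB arrays were above all others, and the NPC-NC and MS5-NC arrays overlapped. The group means ranged over 1.15 log2 units for LIN28B and over 4.74 for LIN28A.

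LIN28B was 2.23-fold lower in MS5-NC than in LSB (-1.15 ± 0.22, limma adjusted p = 0.000643), which was called. In NPC-NC it passed the p threshold but not the fold threshold, at 1.82-fold lower (-0.86 ± 0.22, limma adjusted p = 0.00794). The same was true of MS5-NC against sox10-NC (-0.76 ± 0.22, limma adjusted p = 0.0158). Neither sox10-NC against LSB (-0.40, 95% interval -0.87 to 0.08, limma adjusted p = 0.187) nor NPC-NC against sox10-NC (-0.47, 95% interval -0.94 to 0.00, limma adjusted p = 0.150) passed the test. NPC-NC and MS5-NC differed by 0.29 (95% interval -0.18 to 0.76, limma adjusted p = 0.722). In the order of means, from LSB through sox10-NC and NPC-NC to MS5-NC, no 2 neighbours differed by the test.

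L1TD1, the LIN28A-associated RNA-binding protein, fell in all 3 sorted groups. Its signal was 1352, 1510 and 1666 intensity units in LSB, 497, 327 and 526 in sox10-NC, 198, 351 and 272 in NPC-NC, and 306, 125 and 113 in MS5-NC. The log2 levels were 10.14, 9.99 and 9.97 in LSB, 9.15, 8.24 and 8.91 in sox10-NC, 6.83, 8.13 and 7.54 in NPC-NC, and 7.80, 5.80 and 5.37 in MS5-NC. No sorted array reached the lowest LSB array. The sox10-NC arrays lay above those of NPC-NC and MS5-NC, and the latter 2 groups overlapped.

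L1TD1 was 5.78-fold lower in NPC-NC (-2.53 ± 0.46, limma adjusted p = 0.000506) and 13.1-fold lower in MS5-NC (-3.71 ± 0.46, limma adjusted p = 7.80e-06) than in LSB. It was 2.41-fold lower in sox10-NC (-1.27 ± 0.46, limma adjusted p = 0.0405), the only gene of the 5 called between these day 11 groups. That call was lost without any of 5 of the arrays compared (LSB 1, 2 or 3, sox10-NC 2 or 3), with limma adjusted p from 0.0691 to 0.144. Between MS5-NC and sox10-NC the drop was 5.44-fold (-2.44, limma adjusted p = 0.000511). Without MS5-NC replicate 1 the MS5-NC differences were -4.46 from LSB and -3.19 from sox10-NC, and without background correction they were -2.72 and -1.60. NPC-NC against sox10-NC was just short of the threshold (-1.27, 95% interval -2.23 to -0.30, limma adjusted p = 0.0554), and it was called without sox10-NC replicate 2 (limma adjusted p = 0.0374) or without NPC-NC replicate 2 (limma adjusted p = 0.0365). NPC-NC and MS5-NC differed by 1.18 (limma adjusted p = 0.396). The order of means was LSB, sox10-NC, NPC-NC and MS5-NC, and of the neighbours only LSB and sox10-NC differed by the test.

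ZFP42 was the gene whose signal reached background. On the LSB arrays its signal was 335, 357 and 426 intensity units and on the sox10-NC arrays 259, 363 and 489. It was 107, 96.3 and 98.3 in NPC-NC and 182, 104 and 91.7 in MS5-NC. All 6 day 11 arrays detected it, no NPC-NC array did (detection p from 0.0494 to 0.171), and MS5-NC replicate 1 alone of its group did. The log2 levels were 7.94, 7.75 and 7.86 in LSB and 7.95, 8.43 and 8.78 in sox10-NC. They were 4.83, 4.63 and 4.67 in NPC-NC and 6.63, 5.02 and 4.49 in MS5-NC.

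With NPC-NC below background, the fold is a lower bound, computed against the lowest level that passes detection on those arrays. ZFP42 was at least 6.65-fold lower in NPC-NC than in LSB (limma adjusted p = 9.98e-06) and at least 9.63-fold lower than in sox10-NC (limma adjusted p = 7.44e-07). These bounds hold for the background correction used: the fitted log2 differences of -3.14 and -3.68 became -1.59 and -2.01 without background correction and -2.14 and -2.62 with an offset of 50, all still called. In MS5-NC, where only 1 of 3 arrays measured it, the fitted differences were -2.47 ± 0.38 from LSB (5.54-fold, limma adjusted p = 7.57e-05) and -3.01 ± 0.38 from sox10-NC (8.03-fold, limma adjusted p = 7.84e-06), and their size is not well determined. They were -3.10 and -3.63 without MS5-NC replicate 1, -1.32 and -1.74 without background correction, and -1.74 and -2.22 with an offset of 50. Its highest mean was in sox10-NC, whose 3 arrays all lay above the 3 LSB arrays (the lowest, at 7.95, by under 0.01), by 0.53 on average (95% interval -0.26 to 1.33, limma adjusted p = 0.298). NPC-NC and MS5-NC overlapped, and their difference did not pass the test (limma adjusted p = 0.582). In order of mean level sox10-NC came first and LSB next, and both lay above NPC-NC and MS5-NC. The latter 2 were given no order, since 5 of their 6 arrays did not detect ZFP42.

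DPPA4 did not follow the others. Its log2 level was 9.47, 9.33 and 9.68 in LSB, 9.87, 9.94 and 9.64 in sox10-NC, 10.31, 10.29 and 10.01 in NPC-NC, and 9.53, 8.84 and 9.27 in MS5-NC. All 3 NPC-NC arrays lay above every other array, and the LSB arrays overlapped those of sox10-NC and of MS5-NC. The signal ran from 445 to 1381 intensity units over all arrays, and the group means ranged over 0.99 log2 units.

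DPPA4 was called by limma in 0 of the 6 comparisons, with an unadjusted p under 0.05 in 3. Between NPC-NC and LSB the difference was 0.71 ± 0.23 (limma adjusted p = 0.0267), which is under 2-fold. It was -0.28 in MS5-NC (95% interval -0.76 to 0.20, limma adjusted p = 0.351) and 0.32 in sox10-NC (95% interval -0.16 to 0.80, limma adjusted p = 0.300) against LSB. NPC-NC exceeded MS5-NC by 0.99 (95% interval 0.51 to 1.47), with limma adjusted p = 0.161 over all genes. The order of means was NPC-NC, sox10-NC, LSB and MS5-NC, and no neighbours in it differed by the test. DPPA2, the partner of DPPA4, was detected on at most 1 array and was not tested.

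**Figure D2:**
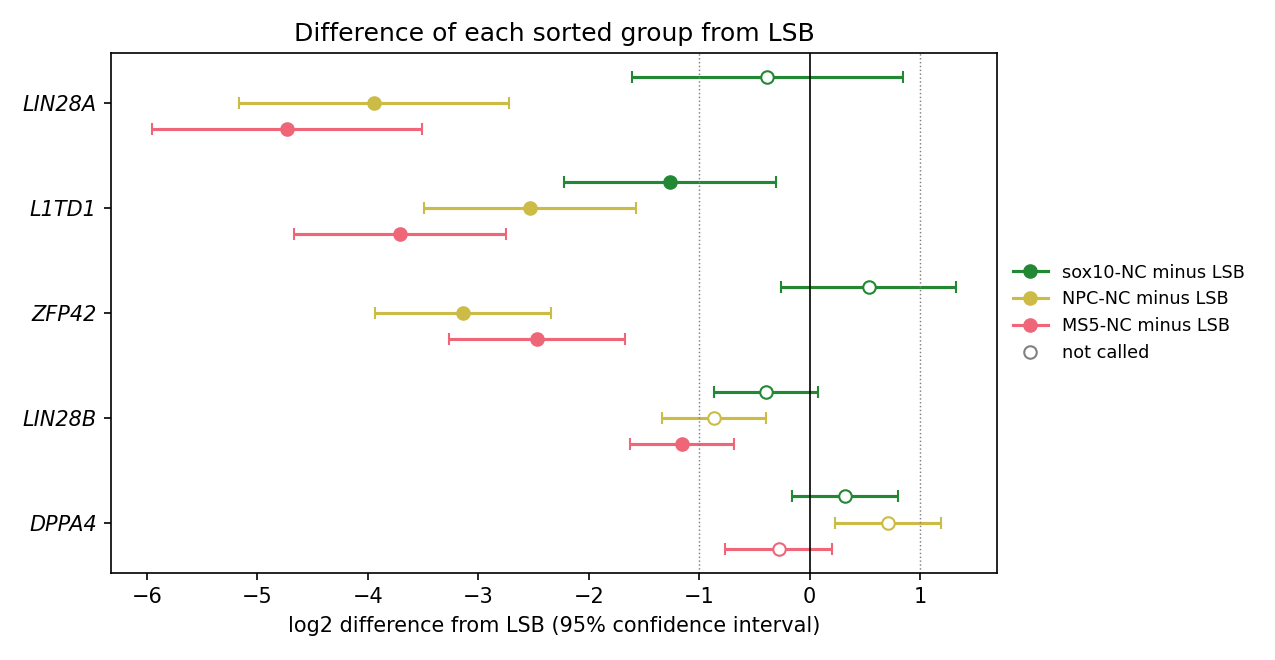
Log2 difference of each sorted group from LSB (horizontal axis) with its 95% confidence interval from the limma model, filled where called and open where not, with dotted lines at 2-fold. The ZFP42 value in NPC-NC is the fitted difference of a probe below background there, and DPPA4 is called in none of the 3 comparisons while LIN28A, L1TD1 and ZFP42 lie between -2.47 and -4.74 in NPC-NC and MS5-NC.

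Counted together, 3 of the 5 genes were called lower in NPC-NC than in LSB, where 4.84% of all tested genes were called lower and 10.2% higher. In MS5-NC 4 of 5 were called lower than in LSB, beside 7.85% of all genes lower and 13% higher. Between sox10-NC and LSB 1 of 5 was called lower, with 8.64% of all genes lower and 9.77% higher. These 3 comparisons share the LSB arrays. Against sox10-NC, 2 of 5 were lower in NPC-NC (4.73% of all genes lower, 9.31% higher) and 3 of 5 in MS5-NC (6.57% lower, 10.8% higher). Between NPC-NC and MS5-NC limma called 0 of 5, with an unadjusted p under 0.05 for 2, where only 0.0443% of all genes were lower and 0.0355% higher. None of the 5 was called higher in any comparison. ZFP42 could not be called higher in NPC-NC or MS5-NC, having been detected on 0 and 1 of their arrays. They were chosen with earlier results of these data known, so these counts are descriptions.

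The MS5-NC arrays were not alike for these genes. Replicate 1 exceeded the higher of replicates 2 and 3 by 3.20 log2 units for LIN28A, which was the second largest such gap of 11280 genes, after FOSB (3.33), an immediate early gene. The gap was 2.00 for L1TD1, the sixth largest, and 1.61 for ZFP42, the 17th. For LIN28B it was 0.48, with 758 genes at that gap or above, and for DPPA4 0.26, with 1766. Gaps of at least 1 upward were found for 97 genes, and 63 genes lay at least 1 below the lower of the other arrays. Without replicate 1, LIN28A and L1TD1 were called higher in NPC-NC than in MS5-NC (both by 1.92, limma adjusted p = 0.00485 and 0.0267).

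Among the other genes with large gaps in replicate 1 were SCARNA11 (2.33) and SCARNA23 (2.23), next after LIN28A. Their levels in replicate 1 (8.34 and 8.66) lay above their LSB means (5.22 and 4.79). Further down came FGF8, a signalling factor of the anterior neural plate, at 1.88, and MGST1, a glutathione transferase, at 1.68. Their levels in replicate 1 (6.31 and 7.66) lay below their LSB means (8.95 and 9.66). Marker sums, here and below, add normalised intensities on the linear scale, less the offset of 16, with the highest probe of each gene. They are not sums of the raw signals given above. The sum of the markers for undifferentiated pluripotent cells (4 on the array) was 3898 in replicate 1 and 2374 and 2917 in replicates 2 and 3. That sum ranged from 3497 to 4105 in LSB, 2159 to 2998 in NPC-NC and 740 to 983 in sox10-NC. The detected markers were SOX2, which neural progenitors also express, and DNMT3B, since POU5F1 and NANOG were not detected on any array. The neural progenitor markers summed to 30881 in replicate 1 and 25303 and 27723 in the other MS5-NC arrays, and ranged from 18426 to 21779 in LSB. The part of other cell types in the gap was not tested. Correlation with the LSB arrays across genes was 0.869 to 0.893 for replicate 1, 0.862 to 0.886 for replicate 2 and 0.849 to 0.871 for replicate 3, a description over genes that are not independent.

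**Figure D3:**
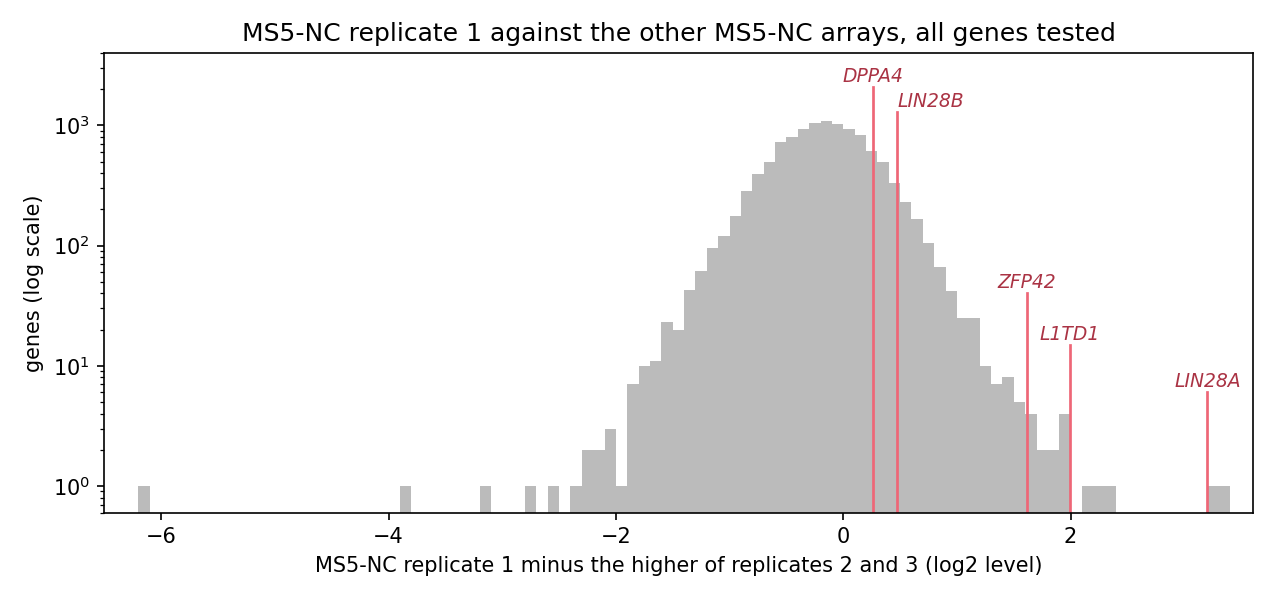
Distribution over the 11280 tested genes of the level in MS5-NC replicate 1 minus the higher of replicates 2 and 3 (horizontal axis, log2) with the number of genes on a log scale (vertical axis). LIN28A (3.20), L1TD1 (2.00) and ZFP42 (1.61) lie in the upper tail, and LIN28B (0.48) and DPPA4 (0.26) lie in the body of the distribution.

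The wider pluripotency network was mostly not detected. Of 28 genes listed, 26 had a probe in the table used here. Of these, 14 were detected on 0 arrays and 10 passed the filter and were tested. Among the 10, 4 were called lower in NPC-NC than in LSB (median difference -0.65), 4 in MS5-NC (median -0.75) and 6 in sox10-NC (median -1.51), and 0 were higher. HESX1 passed the filter through the 3 LSB arrays alone, and ZSCAN10 through these and 1 MS5-NC array. Neither could be called higher in a sorted group, and both are among the genes counted as lower in each comparison. The shares of all tested genes called lower were 4.84%, 7.85% and 8.64% in the same order. The medians over all genes were 0.01, 0.00 and -0.02.

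HESX1, a homeobox gene of pluripotent cells and of the anterior neural plate, was detected on the 3 LSB arrays alone. It was lower by at least 4.72-fold in NPC-NC, 4.54-fold in MS5-NC and 3.89-fold in sox10-NC. USP44, a deubiquitinase of embryonic stem cells, fell in NPC-NC (-1.76 ± 0.28) and in MS5-NC (-2.46 ± 0.28), and lay at least 5.98-fold lower in sox10-NC. ZSCAN10, a zinc finger factor of embryonic stem cells, was likewise called lower in the 3 groups from a low level of 5.45, 5.76 and 6.18 in LSB. PODXL, which carries stem cell surface epitopes, fell in NPC-NC (-1.42 ± 0.37), and the bound in sox10-NC was at least 6.35-fold lower. TERF1, a telomere protein, was called lower in sox10-NC (-1.64 ± 0.34), and its differences were -0.90 in MS5-NC and -0.55 in NPC-NC.

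SOX2, shared by pluripotent and neural progenitor cells, was lowest in sox10-NC, where LIN28A was high. Its level was 11.85, 11.73 and 11.56 in LSB, 11.47, 10.77 and 10.90 in NPC-NC, and 11.72, 11.04 and 11.44 in MS5-NC. In sox10-NC it was 8.61, 8.84 and 9.15. All sox10-NC arrays lay below all others (-2.85 ± 0.25 against LSB, limma adjusted p = 1.06e-07). SALL4, a zinc finger factor of stem cells, was called lower in MS5-NC (-1.08 ± 0.32, limma adjusted p = 0.0129) and differed by -0.63 in NPC-NC and -0.32 in sox10-NC, which were not called. DNMT3B, a de novo DNA methyltransferase, was not called in any comparison with LSB, with -0.12 in sox10-NC, -0.43 for NPC-NC and -0.54 for MS5-NC.

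The genes that process let-7 or work with LIN28 numbered 14, all tested. In NPC-NC 2 were higher and 1 lower than in LSB (median 0.20), and the counts were the same in MS5-NC (median 0.35). Between sox10-NC and LSB 0 of 14 were called (median 0.22), with an unadjusted limma p under 0.05 for 5. Against the 10.2% of all genes higher and 4.84% lower in NPC-NC, and 13% and 7.85% in MS5-NC, these counts of 14 are near the background. The lower gene was TRIM71, a stem cell ubiquitin ligase that is itself a let-7 target, the human counterpart of lin-41 in Caenorhabditis elegans. Its level was 7.61, 7.46 and 7.14 in LSB, 7.22, 7.15 and 7.02 in sox10-NC, 5.85, 6.22 and 5.09 in NPC-NC, and 5.45, 5.85 and 5.03 in MS5-NC. The day 11 arrays all lay above the later ones, as for LIN28A.

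TRIM71 differed from LSB by -1.68 ± 0.28 in NPC-NC (limma adjusted p = 0.000260) and by -1.96 ± 0.28 in MS5-NC (limma adjusted p = 3.89e-05), and by -0.27 in sox10-NC (limma adjusted p = 0.489). It was detected on 2 of 3 arrays in each of NPC-NC and MS5-NC, and a second probe was detected on no array. AGO2, the slicing Argonaute, was higher in NPC-NC (1.19 ± 0.28) and in MS5-NC (1.01 ± 0.28). MSI1, a neural RNA-binding protein reported in mouse to act with LIN28, was higher in NPC-NC (1.36 ± 0.27) and in MS5-NC (1.70 ± 0.27). The nuclease genes DROSHA and DICER1 and the uridylyltransferase genes TUT4 and TUT7 were not called in any of the 3 comparisons with LSB.

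**Figure D4:**
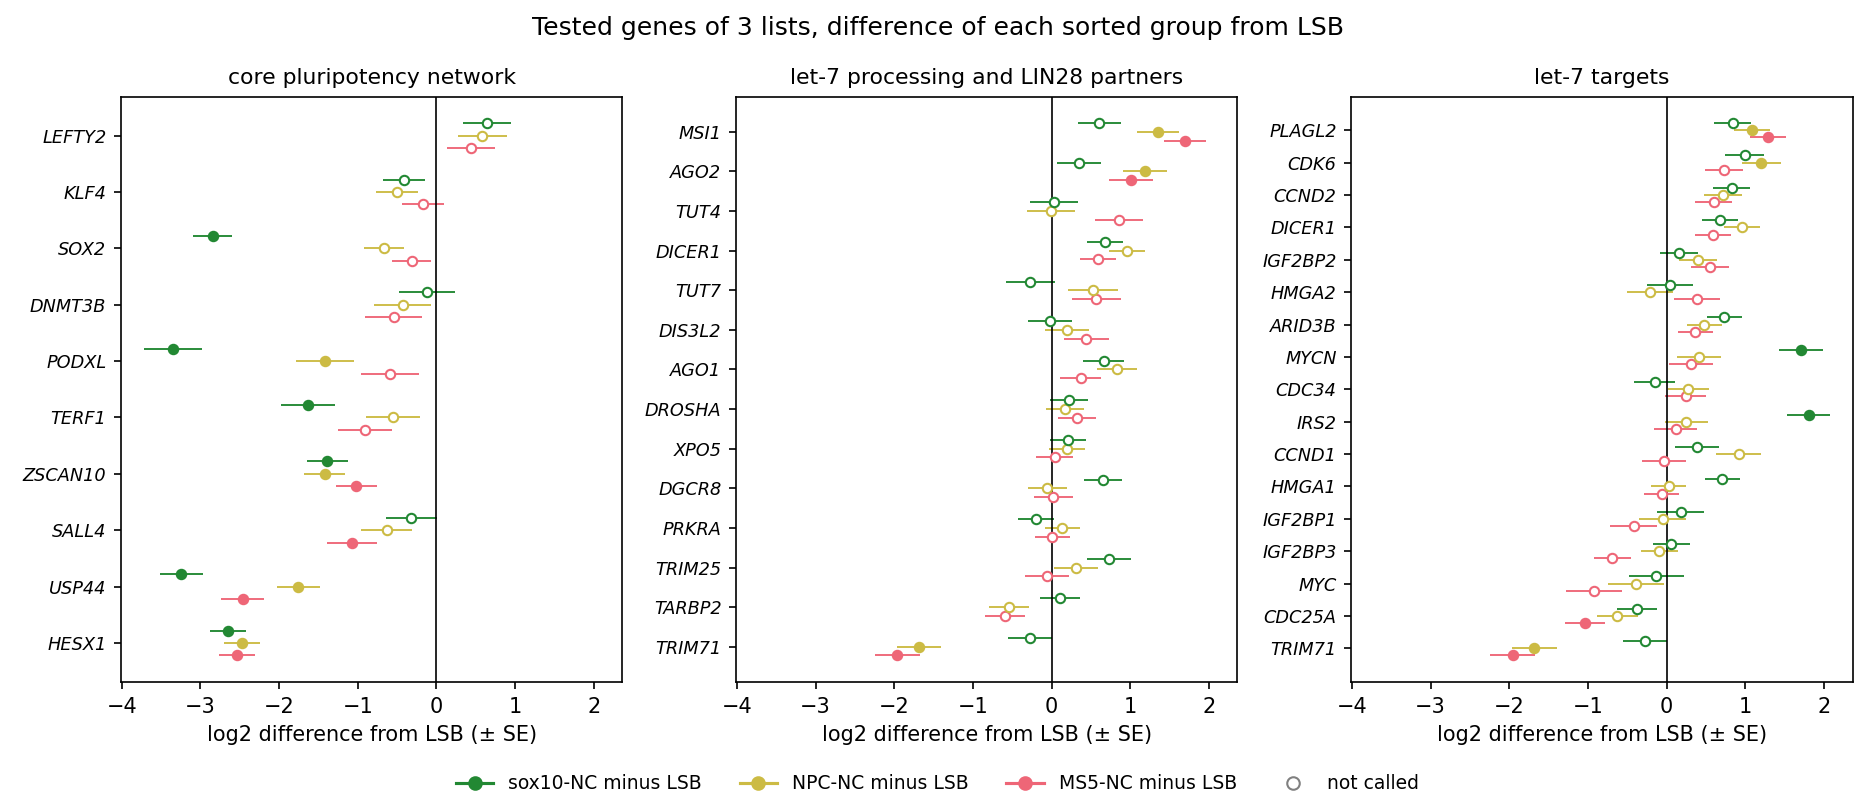
Log2 difference from LSB (horizontal axis, with SE from the limma model) of each tested gene in 3 lists, coloured by sorted group and filled where called; genes below background in a group are drawn at their fitted value. TRIM71 lies at -1.68 and -1.96 in NPC-NC and MS5-NC and at -0.27 in sox10-NC, and most other let-7 processing genes and targets lie within 1 log2 unit of 0.

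Of 23 known let-7 targets listed, 17 were tested, and few were called. In NPC-NC, CDK6 (1.20 ± 0.25) and PLAGL2 (1.09 ± 0.23) were higher than in LSB and TRIM71 was lower, with a median of 0.28. In MS5-NC, PLAGL2 was higher (1.29 ± 0.23) and CDC25A, a cell cycle phosphatase (-1.04 ± 0.26), and TRIM71 were lower, with a median of 0.24. In sox10-NC, IRS2, an insulin receptor substrate (1.80 ± 0.27), and MYCN, a MYC family factor (1.71 ± 0.28), were higher and 0 were lower, with a median of 0.38. These counts of 17 are near the shares of all genes called (10.2% higher and 4.84% lower in NPC-NC, 13% and 7.85% in MS5-NC, 9.77% and 8.64% in sox10-NC), and the 3 list medians lay above the all-gene medians of about 0.

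The fetal RNA-binding protein IGF2BP3, a target of let-7, was not called against LSB, with differences of -0.09 in NPC-NC, -0.69 in MS5-NC and 0.06 in sox10-NC. IGF2BP1 differed by -0.05, -0.42 and 0.18 in the same order. HMGA2, a chromatin protein, differed by -0.21, 0.38 and 0.04, from levels of 4.37 to 5.67 near background. MYCN was lower in NPC-NC and MS5-NC than in sox10-NC (-1.30 ± 0.28 and -1.40 ± 0.28), as were IRS2 and TRIM71.

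Of 12 proliferation genes tested, limma called 0 in NPC-NC and 0 in MS5-NC against LSB, with an unadjusted p under 0.05 for 6 and 3 and an adjusted p under 0.05 for 4 and 1, which were under 2-fold, and 1 was higher (MKI67) and 1 lower (CDK1) in sox10-NC. Their median differences were -0.42, -0.41 and -0.44. The summed normalised intensity of neuron markers, in contrast, was 2873 to 3190 in LSB, 2983 to 8316 in sox10-NC, 13661 to 16808 in NPC-NC and 17617 to 24322 in MS5-NC. Stromal and fibroblast markers summed to 626 to 919 in LSB, 2032 to 4392 in sox10-NC, 1816 to 5098 in NPC-NC and 2865 to 3728 in MS5-NC, with 6 of 9 higher in NPC-NC and in MS5-NC and 2 of 9 in sox10-NC. Among these 6, DCN and LUM were detected on 0 LSB arrays, so they could not be called lower in a sorted group. Their levels varied widely between the NPC-NC arrays (SD 2.69 and 2.20). Neural progenitor markers were higher for 3 of 11 in NPC-NC and 4 in MS5-NC and lower for 6 in sox10-NC. Over all tested genes, 10.2% were called higher and 4.84% lower in NPC-NC, 13% and 7.85% in MS5-NC, and 9.77% and 8.64% in sox10-NC. The 1 of 12 proliferation genes called each way in sox10-NC is near these shares. Of the mesoderm and endoderm markers 3 of 12 were tested, and they did not move together. EOMES, which some neural progenitors also express, was higher in NPC-NC and MS5-NC than in LSB and lower in sox10-NC. CXCR4 was called higher and MESP1 lower in sox10-NC, and neither was called against LSB in the other sorted groups. The part of these cell types in the fall of LIN28A, L1TD1 and ZFP42 was not tested.

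Distance between profiles was measured as the root mean square difference of log2 levels over the 12 arrays after centring each gene on its mean. Levels were not scaled, so the distance reflects the size of changes as well as their pattern. Among the 5 genes, LIN28B and DPPA4 were closest (0.57), both having narrow ranges. In NPC-NC these 2 differed from LSB in opposite directions (-0.86 and 0.71). LIN28A was closer to ZFP42 (0.92) than to L1TD1 (1.05) or to its paralog LIN28B (1.82), and farthest from DPPA4 (2.24). LIN28B still had the same order of group means as LIN28A, while the highest mean of ZFP42 was in sox10-NC. Over all genes, the nearest to LIN28A were MGST1 (0.79), PKDCC (1.00), PMEL (1.01), SLC35F2 (1.05) and MT1X (1.08).

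For ZFP42 the nearest were PKDCC (0.44), PMEL (0.48), SLC35F2 (0.60), MGST1 (0.64) and ANGPTL4 (0.71), so 4 genes stood in both lists. The nearest to L1TD1 were SNAR-A1 (0.37), CPVL (0.61), DIAPH2 (0.75), RFC3 (0.75) and RPL29 (0.76). SNAR-A1 and RPL29 have near-identical copies in the genome, and their values are uncertain. The nearest to LIN28B were TAF1B (0.17), RCBTB1 (0.18), ERLIN1 (0.19), POLR2H (0.19) and E2F1 (0.19), and those to DPPA4 were GOSR1 (0.18), ZNF606-AS1 (0.25), FNTB (0.25), ARMH3 (0.25) and SPATS2L (0.27). Small distances are easier to reach for genes of narrow range, so distances are not compared between these lists.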

How the data were processed

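The deposited table of 12 arrays holds, per the file headers, each probe's mean bead intensity on the linear scale, a detection p-value and a bead number (a count of beads); the 12 bead standard error columns stayed unused. GenomeStudio is named in the submitters' processing notes. The authors' second table holds a processed intensity on a linear scale whose steps are not given in the sources used here; it served as an alternative. The intensity was background corrected from the detection p-values, then quantile normalised on the log2 scale (neqc, offset 16, limma 3.58.1, R 4.3.3). Of 47322 probes 18427 were kept, 14790 with 1 gene by the array annotation, symbols being updated through RefSeq. The kept probe with the highest mean stood for a gene. All 12 arrays entered 1 model of 4 groups (lmFit, eBayes, two-sided, Benjamini-Hochberg), tested on simulated data. Where a group detected a probe on no array, folds are bounds. Named genes were the 5 genes, list members called against LSB (up to 4 a direction) with 12 names given whatever their values, and the 5 nearest profiles each. FOXD3, PAX3, DROSHA, DICER1, TUT4 and TUT7 were chosen after their values were seen. So were FOSB, SCARNA11, SCARNA23, FGF8 and MGST1 in MS5-NC replicate 1. The members and all gene lists were chosen with earlier results of these data known. Same-numbered arrays mostly did not deviate together (2 of 18 correlations over 0.1). Both of these were between NPC-NC and sox10-NC (0.18 for replicate 1 and 0.15 for replicate 2).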

Additional observations from a re-analysis of the deposited data

How the results depend on the processing

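Over the 5 genes, 6 comparisons and 15 alternatives each, 437 of 450 values kept their direction and side of the threshold, 7 lost the call, 6 gained it and 0 reversed. The counts of genes called moved by over 1.5 times under 2 settings. Without background correction they were 616 for NPC-NC, 966 for MS5-NC and 820 for sox10-NC against LSB, and with an offset of 50 they were 950, 1449 and 1260, in place of 1696, 2358 and 2077. Both settings shrink log2 differences of low signals by construction. Without background correction the lower share of the called genes was 22.1% in place of 32.2% for NPC-NC. The 1 gene called between sox10-NC and LSB, L1TD1, became 0 with no detection filter (limma adjusted p = 0.141). It also became 0 with the authors' processed values (limma adjusted p = 0.0505), and the count ranged from 0 to 1 when 1 array was left out. The cause of these losses was not tested. Between NPC-NC and MS5-NC the count of the 5 genes called ranged from 0 to 2 when 1 array was left out, with 2 without MS5-NC replicate 1. L1TD1 was called between NPC-NC and sox10-NC with an offset of 50 (-1.12, limma adjusted p = 0.0297) and with only these 2 groups fitted (limma adjusted p = 0.0250). Signal over background limits ZFP42, TRIM71 and HMGA2.

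With the replicate number as a block (replicate block), 1703, 2359 and 2084 genes were called against LSB and no call of the 5 genes changed. Correlations of same-numbered arrays ran from -0.09 to 0.18, so the numbers were not taken to pair them.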
